A study of Mus musculus with 24 samples.

Results

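The 10 genes described here encode secreted proteins and an enzyme of the lung lining, and were found in RNA from whole mouse hearts. They are Scgb1a1, Scgb3a1, Scgb3a2, Cyp2f2, Bpifa1 and Reg3g, taken as airway members, and Sftpa1, Sftpb, Sftpc and Sftpd, taken as alveolar members. They were chosen by symbol from the 52724 gene rows of the count table, with their high level in some of these libraries already known, so their levels are given as a description and support no test of themselves. All 10 were found. The study deleted Fkbp1a, the gene of the immunophilin FKBP12, in the heart. FKl/l MHC+ mice carried floxed Fkbp1a alleles and Cre recombinase driven by the α-myosin heavy chain promoter (αMHC). FKl/l MCK+ mice carried floxed alleles and Cre driven by the muscle creatine kinase promoter (MCK), which per the study's design text is active later in the embryo. MHC CRE Only mice carried αMHC-driven Cre and no floxed allele, and FKl/l mice carried floxed alleles and no Cre. Each of these 4 genotypes had 6 libraries, 3 in each of 2 batches, named here by genotype, batch and number. The promoters act in heart or striated muscle cells, so other cells of a whole heart keep the gene. Age and sex of the mice are not in the labels, nor is whether libraries of a genotype were made from different animals. A p-value here is therefore set against library-to-library spread, which may be technical.

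Airways are lined by ciliated cells and by secretory cells, among them the club cells, whose main product is the secretoglobin Scgb1a1. Alveoli hold type 1 cells, through which gas passes, and type 2 cells, which make surfactant. Of the surfactant proteins, Sftpc is the one most restricted to type 2 cells, whereas Sftpa1, Sftpb and Sftpd are also made by secretory cells of the airways. Scgb1a1 and Sftpc are not known as products of heart muscle. In RNA from a whole organ, fewer cells of a type and less RNA per cell cannot be told apart.

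Promoters are shown for 2 airway and 2 alveolar members. How far the transcripts of both classes varied together between libraries is described further on. RefSeq entries on GRCm38.p6, of 250 bases before to 50 after the start site, matched 6 of the 10 members. The capitals mark 2 motifs searched on both strands, neither of which overlapped the other: TATAAA, the core of the TATA box, and CTCAAG, part of the consensus bound by the lung factor NKX2-1, which reads CTTGAG on the other strand. Each promoter is on the plus strand and reads 5′ to 3′. They lie at chr2:154142630-154142929 (Bpifa1), chr7:27119705-27120004 (Cyp2f2), chr6:72304360-72304659 (Sftpb) and chr14:41131538-41131837 (Sftpa1).
Bpifa1: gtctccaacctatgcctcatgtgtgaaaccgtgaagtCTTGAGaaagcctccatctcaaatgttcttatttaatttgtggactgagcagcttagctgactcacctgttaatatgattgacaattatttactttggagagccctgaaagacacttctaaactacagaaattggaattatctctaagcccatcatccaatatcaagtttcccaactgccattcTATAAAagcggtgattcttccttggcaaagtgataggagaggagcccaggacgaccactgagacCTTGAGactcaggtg
Cyp2f2: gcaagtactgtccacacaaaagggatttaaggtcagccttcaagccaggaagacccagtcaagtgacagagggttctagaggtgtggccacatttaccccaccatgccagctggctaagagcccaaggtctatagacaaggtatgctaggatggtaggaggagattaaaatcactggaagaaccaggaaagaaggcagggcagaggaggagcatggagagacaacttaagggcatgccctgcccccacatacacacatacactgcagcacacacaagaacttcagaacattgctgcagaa
Sftpb: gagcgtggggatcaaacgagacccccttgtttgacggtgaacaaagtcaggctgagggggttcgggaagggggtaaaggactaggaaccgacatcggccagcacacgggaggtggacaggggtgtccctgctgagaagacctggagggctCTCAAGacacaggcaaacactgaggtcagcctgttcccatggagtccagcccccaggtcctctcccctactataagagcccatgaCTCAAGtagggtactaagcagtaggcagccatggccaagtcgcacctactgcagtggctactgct
Sftpa1: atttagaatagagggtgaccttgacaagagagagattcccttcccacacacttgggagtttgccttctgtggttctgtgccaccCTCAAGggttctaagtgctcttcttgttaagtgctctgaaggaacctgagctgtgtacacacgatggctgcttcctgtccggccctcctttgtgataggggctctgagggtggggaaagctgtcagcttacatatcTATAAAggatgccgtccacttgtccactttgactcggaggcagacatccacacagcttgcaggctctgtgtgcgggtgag
TATAAA stood at -29 in Bpifa1 and at -30 in Sftpa1, counted in bases from the start site, and CTCAAG or its reverse complement stood in Bpifa1 at -213 and 35, in Sftpb at -100 and -15 and in Sftpa1 at -166. Over all 32851 mouse promoters of this length, 13.6% held TATAAA and 15.9% held CTCAAG. The forkhead motif TGTTTAC, held by 3.65% of all promoters, was in none of the 6. A match describes the letters and not a bound site, and the Cyp2f2 window held none of the 3 motifs.

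The gene rows of a library summed to between 27799403 and 40412640 counts, of which mitochondrially encoded genes took 25.7 to 36.5%. Fkbp1a itself averaged 59.1 ± 12.6 CPM in FKl/l MHC+, 65.0 ± 10.7 CPM in FKl/l MCK+, 122 ± 20.5 CPM in MHC CRE Only hearts and 130 ± 10.1 CPM in FKl/l (CPM, read counts scaled to library size, SD, n = 6 each). At 81.7 CPM of Fkbp1a, MHC CRE Only 1-3 was the lowest library of its genotype and low for its label. It lay just above the highest libraries of FKl/l MHC+, at 75.6 CPM, and of FKl/l MCK+, at 81.1 CPM. The libraries MHC CRE Only 2-3 and FKl/l 1-1 stand apart in the lung transcripts, as described next, and the summed level and the fold changes are given with and without these 3 libraries. Their depth did not stand apart, with 33819350 counts in MHC CRE Only 2-3 and 36618680 in FKl/l 1-1.

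The lung transcripts were concentrated in 2 libraries of different genotype and batch. The 10 members together had 1207 CPM in the MHC CRE Only 2-3 library and 452 CPM in FKl/l 1-1, against a median of 4.44 CPM and a highest value of 92.9 CPM in the other 22 libraries. These 2 libraries held 81.0% of the 76600 counts of the members, 80.1% of the 71475 airway counts and 93.9% of the 5125 alveolar counts. The other libraries spread over 3 bands, each of which held more than 1 genotype. A band of 7 libraries had 19.9 to 92.9 CPM, of which 3 were FKl/l MHC+, 1 was FKl/l MCK+ and 3 were MHC CRE Only. A further 5 libraries, 3 of FKl/l MCK+ and 2 of FKl/l, had 4.01 to 8.15 CPM. The remaining 10, drawn from all 4 genotypes, had 0.442 to 1.55 CPM. The highest library was 2727-fold above the lowest, although even there the members made up 0.139% of the gene counts.

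Levels did not sort by genotype. The summed level averaged 25.1 ± 33.8 CPM in FKl/l MHC+, 8.29 ± 12.5 CPM in FKl/l MCK+, 232 ± 479 CPM in MHC CRE Only hearts and 77.9 ± 183 CPM in FKl/l (SD, n = 6 each). The SD exceeded the mean in each genotype, and the ranges of all 4 overlapped. By mean the order was MHC CRE Only, FKl/l, FKl/l MHC+ and FKl/l MCK+, and no neighbours in it differed beyond their spread. The medians gave another order, with 10.7 CPM in FKl/l MHC+, 4.44 CPM in FKl/l MCK+, 43.7 CPM in MHC CRE Only hearts and 2.95 CPM in FKl/l. Without its highest library MHC CRE Only averaged 36.7 ± 39.0 CPM, and FKl/l without its own averaged 3.12 ± 3.34 CPM (SD, n = 5 each). A single library also moved the other means, to 13.0 ± 18.6 CPM in FKl/l MHC+ without 2-1 and 3.26 ± 2.32 CPM in FKl/l MCK+ without 1-2 (SD, n = 5 each). Leaving out MHC CRE Only 1-3 instead gave 278 ± 520 CPM for that genotype (SD, n = 5).

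Both batches held high and low libraries. The summed level in batch 2 had a median of 6.97 CPM and reached 1207 CPM in MHC CRE Only 2-3. In batch 1 the median was 3.21 CPM and the highest value was 452 CPM in FKl/l 1-1. Without these libraries the mean was 21.4 ± 28.8 CPM in batch 2 and 14.8 ± 27.9 CPM in batch 1 (SD, n = 11 each). Within MHC CRE Only all 3 libraries of batch 2 had at least 30.8 CPM, whereas 2 of the 3 in batch 1 had 1.54 and 1.40 CPM.

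**Figure D1:**
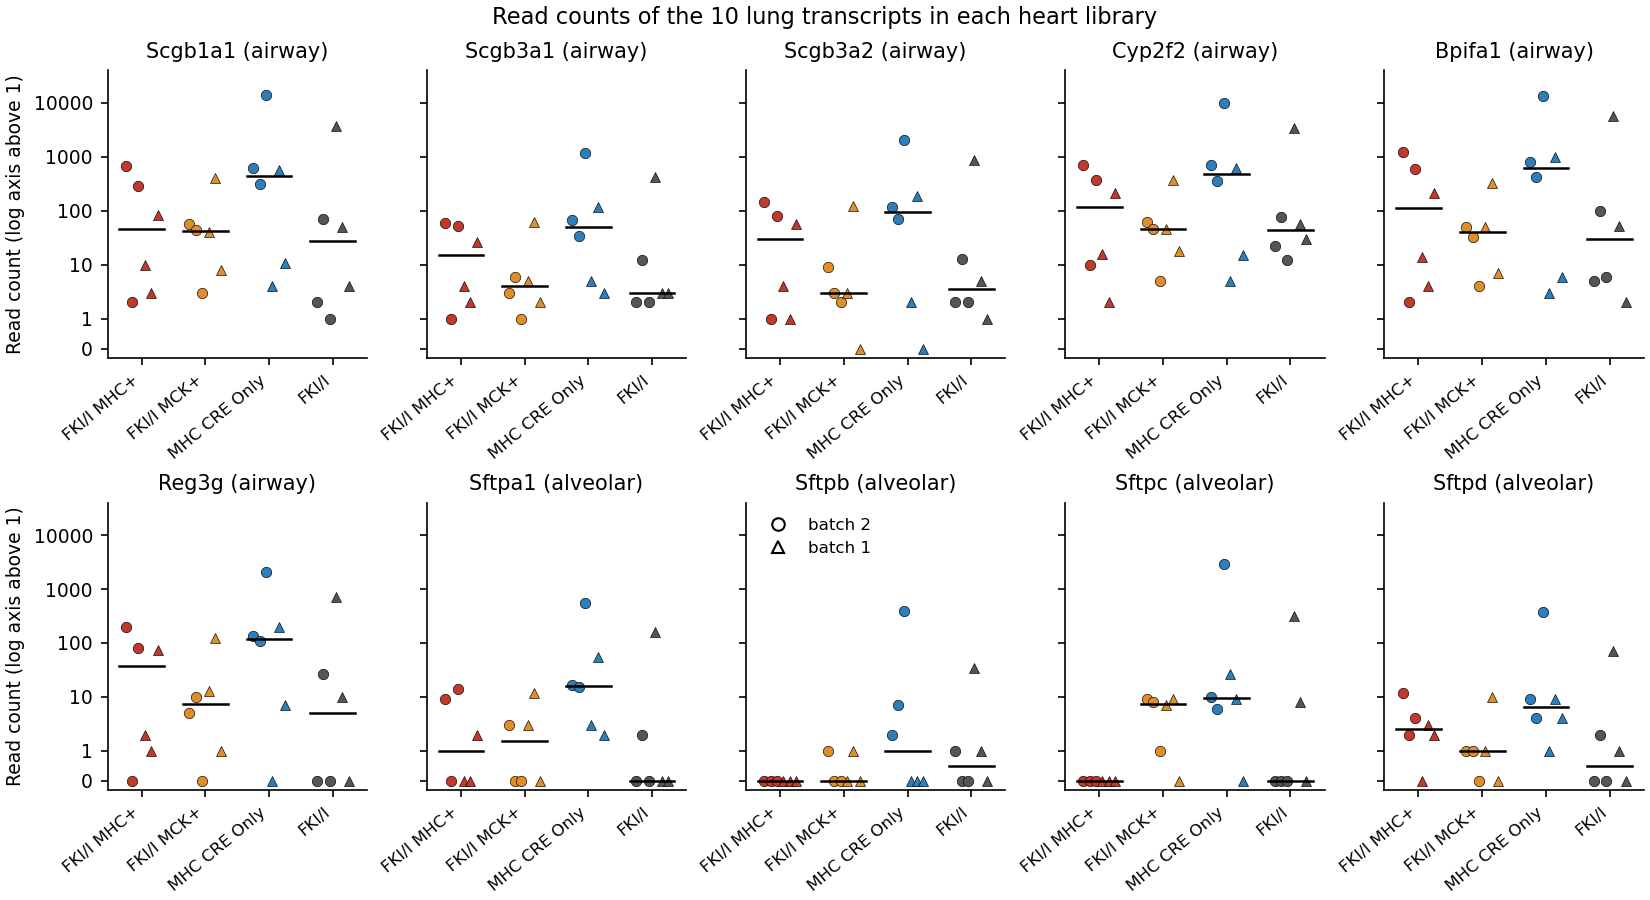
Read counts of each of the 10 members in the 24 libraries (log axis above 1), by genotype, with circles for batch 2, triangles for batch 1 and a line at the median of 6 libraries. MHC CRE Only 2-3 and FKl/l 1-1 lie above the rest of their genotype for all members, and Sftpb and Sftpc stand at 0 in all 6 FKl/l MHC+ libraries.

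Scgb1a1 (ENSMUSG00000024653), on the minus strand of chromosome 19 from 9083636 to 9087958 in GRCm38, encodes the secretoglobin that club cells release into the airway lining fluid. The lowest, median and highest levels were 0.0508, 1.38 and 18.8 CPM in FKl/l MHC+ and 0.101, 1.17 and 9.34 CPM in FKl/l MCK+. They were 0.123, 10.8 and 364 CPM in MHC CRE Only hearts, against 0.0261, 0.712 and 108 CPM in FKl/l. The groups overlapped over most of their range. The 364 CPM of MHC CRE Only 2-3 came from 14150 reads and the 108 CPM of FKl/l 1-1 from 3642, while the median of the other 22 libraries was 42 reads. The highest of those 22 was MHC CRE Only 1-2 with 18.9 CPM.

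Bpifa1 (ENSMUSG00000027483, chromosome 2, 154142880 to 154149219, plus strand) encodes an antimicrobial protein of the fluid that lines the nose, trachea and large airways. Its lowest, median and highest levels were 0.0508, 3.36 and 34.5 CPM in FKl/l MHC+ and 0.135, 1.15 and 7.72 CPM in FKl/l MCK+. In MHC CRE Only they were 0.0926, 14.1 and 346 CPM, against 0.0461, 0.770 and 166 CPM in FKl/l. Here too all groups overlapped, with the FKl/l library 1-1 higher than all libraries except MHC CRE Only 2-3. Cyp2f2 (ENSMUSG00000052974, chromosome 7, 27119909 to 27133660, plus strand), a cytochrome P450 of mouse club cells, ranged from 0.0553 to 19.8 CPM in FKl/l MHC+ and from 0.168 to 8.55 CPM in FKl/l MCK+. It ranged from 0.154 to 253 CPM in MHC CRE Only, against 0.313 to 101 CPM in FKl/l. Cyp2f2 and Bpifa1 had at least 2 reads in every library.

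The other airway members followed the same libraries. Scgb3a1 (chromosome 11, 49663610 to 49665118, plus strand) and Scgb3a2 (chromosome 18, 43764289 to 43767399, plus strand) encode further secretoglobins of airway secretory cells. Scgb3a1 reached 1.70 CPM in FKl/l MHC+, 1.46 CPM in FKl/l MCK+, 30.8 CPM in MHC CRE Only hearts and 12.3 CPM in FKl/l, and its median was highest in MHC CRE Only at 1.15 CPM and lowest in FKl/l at 0.0738 CPM. Scgb3a2 reached 4.16 CPM, 2.78 CPM, 51.5 CPM and 25.9 CPM in the same genotypes and had no read in 2 libraries. Reg3g (chromosome 6, 78466269 to 78468872, minus strand), which encodes a lectin that kills Gram-positive bacteria, reached 5.57 CPM in FKl/l MHC+, 2.83 CPM in FKl/l MCK+, 52.5 CPM in MHC CRE Only hearts and 21.2 CPM in FKl/l. It had no read in 6 libraries, 3 of them FKl/l. FKl/l MCK+ 1-2 was the highest library of its genotype for all 6 airway members, with 1410 airway reads against at most 185 in the other 5.

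The surfactant genes were rarer and more uneven. Sftpc (ENSMUSG00000022097, chromosome 14, 70520949 to 70524081, minus strand), the hydrophobic surfactant protein of type 2 cells, had 2914 reads in MHC CRE Only 2-3, which is 75.0 CPM, and 313 reads in FKl/l 1-1, which is 9.31 CPM. No other library had more than 27 reads. All 6 FKl/l MHC+ libraries had 0 reads, which over the group allows up to 0.0142 CPM by counting error, although FKl/l MHC+ 2-1 held 2990 airway reads. In contrast, FKl/l MCK+ 2-1, 2-2 and 1-1 and FKl/l 1-2 had 7 to 9 Sftpc reads beside only 141 to 185 airway reads. By genotype, 5 of 6 FKl/l MCK+ and 5 of 6 MHC CRE Only libraries had an Sftpc read, against 2 of 6 FKl/l libraries and 0 of 6 FKl/l MHC+ libraries.

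Sftpa1 (ENSMUSG00000021789, chromosome 14, 41131782 to 41136452, plus strand) and Sftpd (ENSMUSG00000021795, chromosome 14, 41172214 to 41185149, minus strand), 35761 bases apart, encode surfactant lectins that bind microbes. Sftpa1 reached 0.407 CPM in FKl/l MHC+, 0.278 CPM in FKl/l MCK+, 14.3 CPM in MHC CRE Only hearts and 4.79 CPM in FKl/l, and had no read in 10 libraries. Sftpd reached 0.339 CPM, 0.232 CPM, 9.75 CPM and 2.14 CPM in the same genotypes. Sftpb (ENSMUSG00000056370, chromosome 6, 72304610 to 72314371, plus strand), which spreads surfactant over the alveolar surface, had 384 reads in MHC CRE Only 2-3 and 34 in FKl/l 1-1, and at most 7 reads elsewhere. It was at 0 reads in 16 libraries, all 6 FKl/l MHC+ libraries among them. A further 2 rows named by Sftpb transcripts were not added.

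Per length of transcript, club cell and large airway products led in both high libraries. In CPM per kilobase of exon, MHC CRE Only 2-3 had 765 of Scgb1a1, 224 of Bpifa1 and 125 of Cyp2f2. FKl/l 1-1 had 227 of Scgb1a1, 108 of Bpifa1 and 49.7 of Cyp2f2, the same order. Sftpc was the fourth in MHC CRE Only 2-3 at 72.5 CPM per kilobase and the seventh in FKl/l 1-1. The other 3 surfactant genes were the lowest in both, at 4.04 to 5.02 CPM per kilobase in MHC CRE Only 2-3 and 0.514 to 1.67 in FKl/l 1-1.

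Most reads came from airway genes in nearly every library. Over all 24 libraries airway members took 93.3% of the member reads. In the 14 libraries with at least 100 such reads the airway share had a median of 97.5%. The lowest of these was MHC CRE Only 2-3 at 91.0% (95% Wilson interval 90.7 to 91.2) and the highest FKl/l MHC+ 1-3 at 99.4% (98.5 to 99.8). Intervals cover counting error only, since PCR copies of a molecule may be counted. FKl/l 1-1 had 96.2% (95.9 to 96.5). All 3 FKl/l MHC+ libraries among the 14 lay above 98%, and 3 of the 4 FKl/l MCK+ libraries lay between 93.0 and 94.0%.

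A single library had more alveolar than airway reads. MHC CRE Only 1-1 held 31 alveolar reads, 27 of them Sftpc, and 19 airway reads, 4 of them Scgb1a1, for an alveolar share of 62.0% (48.2 to 74.1). Its total was small, with 50 member reads or 1.54 CPM, but its Sftpc level of 0.833 CPM was the highest of the 22 libraries. The other 9 libraries with fewer than 100 reads had airway shares of 81.2 to 100%, with intervals as wide as 57.0 to 93.4%.

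**Figure D2:**
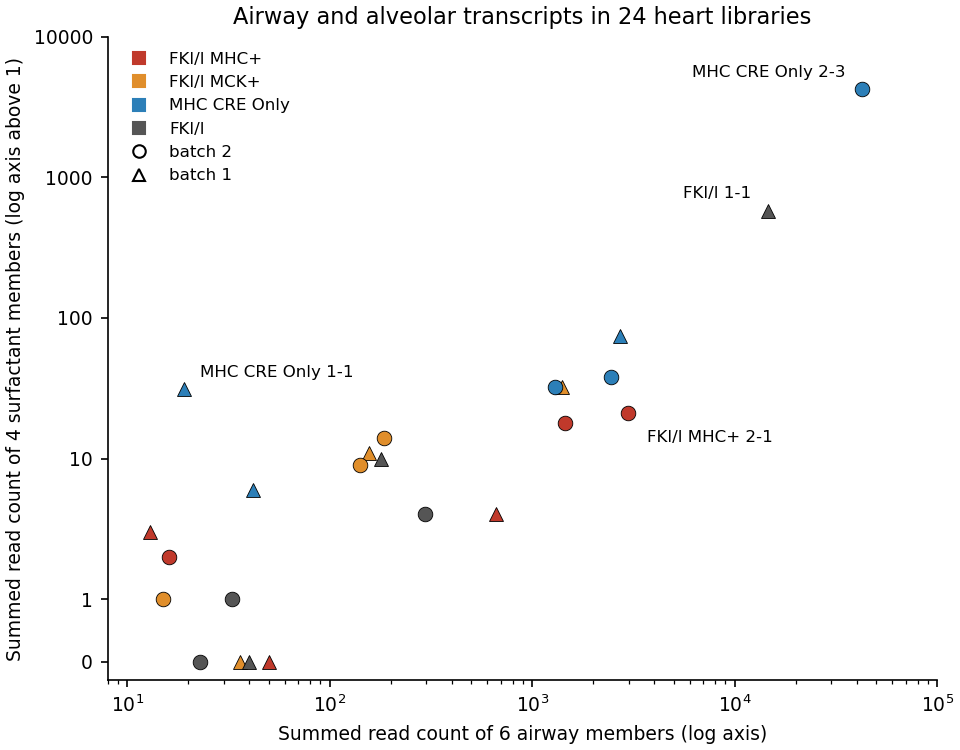
Summed reads of the 6 airway members (x, log axis) and the 4 surfactant members (y, log axis above 1) in each of 24 libraries, coloured by genotype, with circles for batch 2 and triangles for batch 1. MHC CRE Only 2-3 and FKl/l 1-1 lie at the top right with 42649 and 14617 airway reads, and MHC CRE Only 1-1 lies apart with 31 alveolar and 19 airway reads.

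The mixture of airway transcripts also differed between libraries. Among the 14 libraries, reads of Bpifa1 over reads of Scgb1a1 were lowest in FKl/l MCK+ 2-2, at 0.750 (33 over 44 reads, 95% exact interval 0.463 to 1.205). The ratio was highest in FKl/l MHC+ 1-3, at 2.57 (1.98 to 3.36). In the 2 highest libraries this ratio was 0.949 in MHC CRE Only 2-3 (95% exact interval 0.927 to 0.972) and 1.54 in FKl/l 1-1 (1.47 to 1.60), which do not overlap. Reads of Cyp2f2 over Scgb1a1 ran from 0.695 (0.677 to 0.713) to 2.62 (2.02 to 3.42). Those of Reg3g over Scgb1a1 ran from 0.0893 (5 over 56 reads, 0.0279 to 0.221) to 0.902 (0.650 to 1.25). FKl/l MHC+ 1-3 was lowest in its share of Scgb1a1 (12.3%) and highest in those of Cyp2f2 (32.2%), Reg3g (11.1%) and Scgb3a2 (8.38%).

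The amount of Sftpc beside the airway transcripts differed between libraries. Its reads over those of Scgb1a1 were 0.206 in MHC CRE Only 2-3 (95% exact interval 0.198 to 0.214), 0.0859 in FKl/l 1-1 (0.0763 to 0.0965) and 0.0159 in MHC CRE Only 1-2 (0.00725 to 0.0305). The value in FKl/l MHC+ 2-1 was 0, with an upper bound of 0.00557. Sftpc over Sftpa1 was 5.23 in MHC CRE Only 2-3 (4.78 to 5.74), 1.94 in FKl/l 1-1 (1.60 to 2.37) and 0.161 in MHC CRE Only 1-2 (0.0699 to 0.327), none of which overlap. Sftpa1 over Scgb1a1 differed less between the 2 highest libraries, with 0.0394 in MHC CRE Only 2-3 (0.0361 to 0.0428) and 0.0442 in FKl/l 1-1 (0.0375 to 0.0518).

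**Figure D3:**
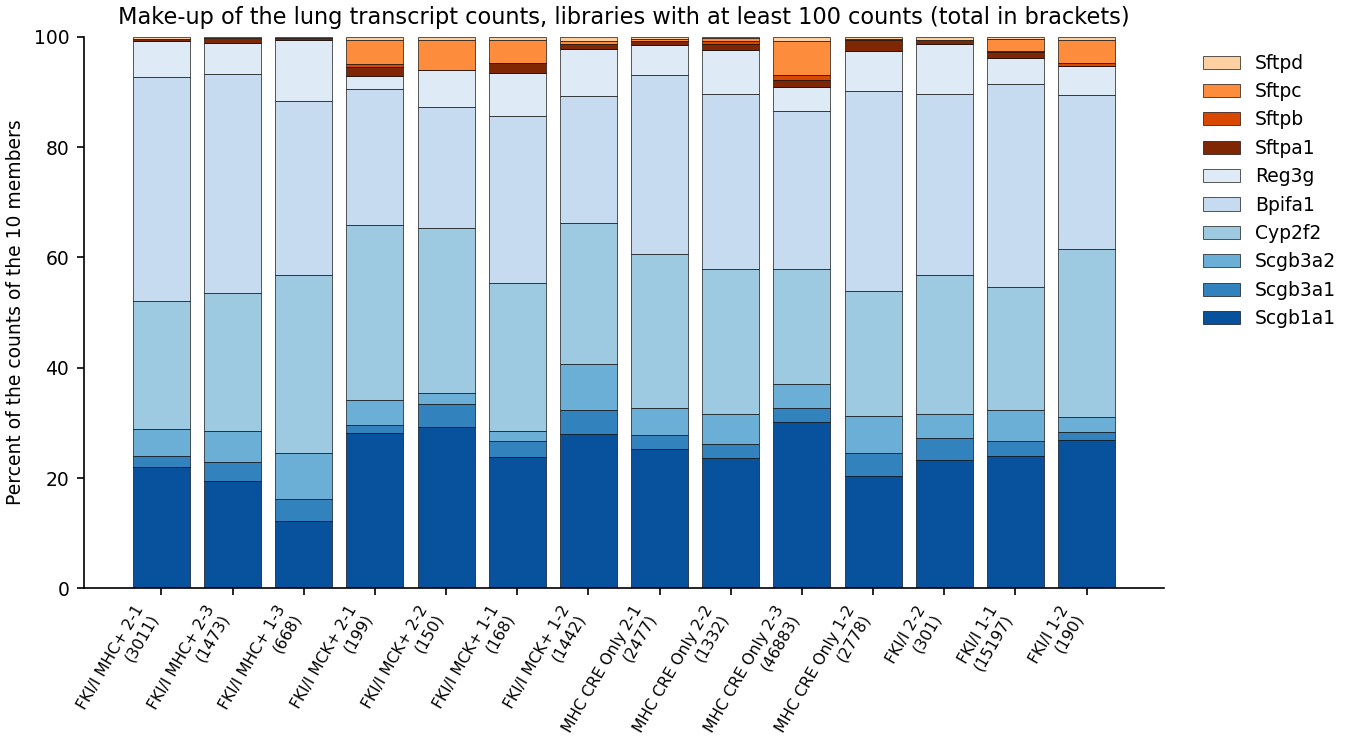
Percent of the reads of the 10 members that fell on each member (y axis) in the 14 libraries with at least 100 such reads, with the total in brackets; blues are airway members and browns and oranges surfactant members. Airway members fill 91.0 to 99.4% of each bar, and the Sftpc band is visible in MHC CRE Only 2-3, FKl/l 1-1, 3 FKl/l MCK+ libraries and FKl/l 1-2 and absent from FKl/l MHC+.

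The airway members varied together across libraries. On log2 CPM with a prior count of 2, the 15 pairs of airway members had Pearson r of 0.95 to 0.99 over the 24 libraries, and the 6 pairs of alveolar members 0.79 to 0.93. Spearman rho was 0.88 to 0.97 for the airway pairs but 0.36 to 0.85 for the alveolar pairs. For an airway with an alveolar member r was 0.62 to 0.96 and rho 0.37 to 0.89. The mean of the airway members against the mean of the alveolar members gave r = 0.83 and Spearman rho = 0.80 (24 libraries). Without the 2 highest libraries these were 0.79 and 0.75 (22 libraries). Within batch 2 they were 0.83 and 0.86, and within batch 1 0.84 and 0.71 (12 libraries each). The points share their library, its depth and 2 dominant libraries, and Sftpb and Sftpc are at or near 0 in most libraries, so these values are a description.

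The genes most like the members, out of 14641 compared by Pearson r over the 24 libraries, included other airway products. With the mean of the airway members they were Sec14l3 (0.99), Bpifb1 (0.99), Wfdc2 (0.99), Ltf (0.98), Muc5b (0.98), Cyp2a5 (0.97), Krt15 (0.95) and Pigr (0.94). Bpifb1 is a relative of Bpifa1, Muc5b a gel-forming airway mucin, Ltf the iron-binding lactoferrin and Pigr the receptor that carries antibodies through epithelium. Without the 2 highest libraries their r was 0.89 to 0.98. Ltf had 127 CPM in the MHC CRE Only 2-3 library and 58.5 CPM in FKl/l 1-1, against a median of 0.332 CPM in the other 22.

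With the mean of the alveolar members the closest included Nkx2-1 (0.95), Tff2 (0.95), Cbr2 (0.94), Muc20 (0.94), Dnah5 (0.94), Ccdc40 (0.94) and Slc34a2 (0.94). Nkx2-1 is the transcription factor that specifies lung epithelium, Slc34a2 a phosphate transporter of type 2 cells, and Dnah5 and Ccdc40 are parts of motile cilia. These rested more on the 2 highest libraries, since without them r was 0.60 to 0.79. Of these 7, all but Cbr2, Dnah5 and Ccdc40 had a median of 0 CPM in the other 22 libraries. Slc34a2 had 168 reads in MHC CRE Only 2-3 and 12 in FKl/l 1-1, Nkx2-1 had 31 and 11, and Muc20 had 45 and 11. Slc34a2, Nkx2-1 and Muc20 had fewer than 10 reads in each other library. Genes needed at least 10 counts in at least 2 libraries to be compared, so these genes entered only through the 2 highest libraries. The members are high in the same 2 libraries, so the r of these genes over all 24 is no separate evidence of likeness.

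Summed markers of airway secretory cells, of ciliated cells and of epithelium in general were higher in MHC CRE Only 2-3 and in FKl/l 1-1 than in each of the other 22 libraries, and those of airway inducible genes were not. The lists were written from general knowledge with earlier results known, and a gene counts as above where its CPM exceeds that of all other 22 libraries. Over 17403 genes this held for 5.91% in MHC CRE Only 2-3, 5.02% in FKl/l 1-1 and 1.90% in both. Of 14 other genes of airway secretory cells, all 14 were above in both, and their summed level was 663 CPM in the MHC CRE Only 2-3 library and 269 CPM in FKl/l 1-1, against a median of 50.0 CPM and a highest of 89.5 CPM in the other 22. Cbr2, a carbonyl reductase of club cells, had 294 and 96.4 CPM in the 2 libraries against at most 37.3 CPM elsewhere, and Bpifb1 had 96.3 and 45.5 CPM against at most 7.76 CPM. Cyp4b1, a lung cytochrome P450, differed little, with 37.9 and 29.9 CPM against 18.8 to 29.0 CPM.

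Ciliated cell genes followed, at lower levels. All 14 were above in MHC CRE Only 2-3 and 11 of 14 in FKl/l 1-1, with sums of 79.0 and 48.9 CPM against a median of 35.2 CPM in the other 22. Foxj1, the master factor of motile cilia, had 9.88 CPM in the MHC CRE Only 2-3 library and 3.87 CPM in FKl/l 1-1, against at most 1.07 CPM elsewhere. Among 12 general epithelial genes, 11 and 10 were above, and the keratin Krt19 had 25.8 and 11.1 CPM against at most 4.42 CPM. Of 9 lung and airway transcription factors 8 and 7 were above, and Elf3 had 4.76 and 1.67 CPM against at most 0.437 CPM. Of 10 genes of basal and squamous epithelium 3 were above in both, with Krt5 at 6.51 and 1.78 CPM against at most 1.14 CPM, and Krt13, Krt6a and Dsg3 at 0 reads in MHC CRE Only 2-3.

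Markers of the gas-exchange lung stood out in one library more than in the other. Of 12 other type 2 cell genes, 9 were above in MHC CRE Only 2-3 and 6 in FKl/l 1-1, with sums of 70.9 and 41.1 CPM against 35.9 to 43.5 CPM in the other 22. The mucin Muc1 had 10.6 and 2.94 CPM against at most 0.870 CPM, whereas the lipid transporter Abca3, which heart libraries also held, had 24.5 CPM in MHC CRE Only 2-3, against 17.7 to 22.7 CPM in the other 22. Of 11 type 1 cell genes 7 and 4 were above, with sums of 119 and 74.7 CPM against 72.4 to 93.9 CPM. Of 9 lung mesenchyme genes 5 and 1 were above, and the matrix protein gene Npnt had 14.3 and 4.10 CPM against at most 6.17 CPM.

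Airway inducible genes and most other tissues near the heart and lung gave smaller differences. Summed alveolar macrophage genes had 17.5 CPM in the MHC CRE Only 2-3 library and 18.7 CPM in FKl/l 1-1, inside the 11.9 to 24.5 CPM of the other 22, and airway cartilage genes had 17.7 and 15.6 CPM, inside 7.96 to 31.3 CPM. Car4 alone gave 13.3 and 16.1 CPM of the macrophage sums. Of 10 macrophage genes 2 were above in MHC CRE Only 2-3 and 1 in FKl/l 1-1, and of 10 cartilage genes 4 and 0. Airway inducible and antimicrobial genes had 8.44 and 5.89 CPM, inside 3.53 to 11.4 CPM, with Reg3b and Saa3 at 0 reads in MHC CRE Only 2-3. Of these 8 genes, however, 3 were above in MHC CRE Only 2-3 and 2 in FKl/l 1-1, beside 5.91 and 5.02% of all genes. Clca1 had 2.81 and 0.297 CPM against at most 0.204 CPM elsewhere. Retnla and Lcn2, highest in the list by mean level, lay inside the range of the other 22. Thymus genes had 1.49 and 2.74 CPM, inside 1.07 to 3.39 CPM, and 8 of the 13 were at 0 reads in MHC CRE Only 2-3. Thyroid genes had 3.53 and 3.36 CPM, inside 2.77 to 4.12 CPM.

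Summed mesothelium and fat markers lay above the median of the other 22 in both libraries. Mesothelium genes had 17.2 CPM in the MHC CRE Only 2-3 library and 17.6 CPM in FKl/l 1-1, above the 4.98 to 13.8 CPM of the other 22, with Msln at 9.63 and 6.12 CPM against at most 2.39 CPM. Of the 5 mesothelium genes only 2 were above in both libraries. Wt1 went the other way, at 1.96 and 2.32 CPM against a median of 2.63 CPM in the other 22. Brown and white fat genes had 323 CPM in both, within the 41.7 to 350 CPM of the others but above their median of 119 CPM. Fast skeletal muscle genes had 11.2 and 4.91 CPM, inside 2.06 to 12.9 CPM. Atrial genes had 3097 and 4775 CPM and red blood cell genes 8453 and 8647 CPM, both inside the range of the others. Cardiomyocyte genes had 43752 CPM in MHC CRE Only 2-3, below the 44787 to 56424 CPM of the other 22, and 49804 CPM in FKl/l 1-1. The part of these tissues in the lung transcript levels was not tested.

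**Figure D4:**
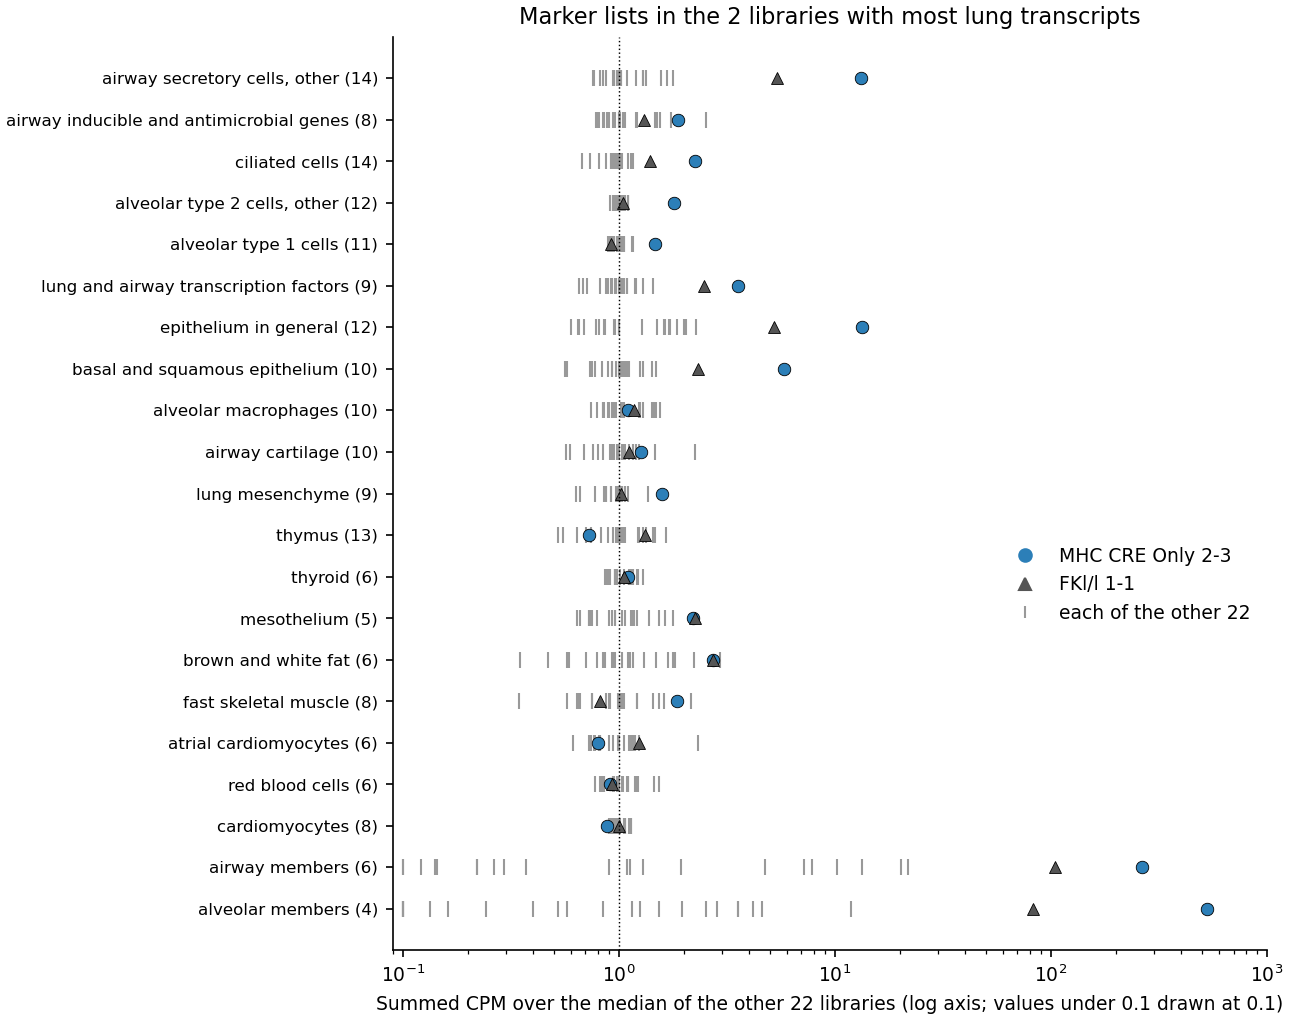
Summed CPM of each marker list (genes in brackets) divided by the median of the other 22 libraries (x, log axis), for MHC CRE Only 2-3 (circles), FKl/l 1-1 (triangles) and each other library (ticks). Other airway secretory genes and general epithelial genes lie right of all ticks at 13.3-fold each in MHC CRE Only 2-3 and at 5.37-fold and 5.23-fold in FKl/l 1-1, while cardiomyocyte genes lie at 0.884-fold and near 1-fold.

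No member was called between genotypes. Counts were fitted in edgeR by quasi-likelihood with terms for genotype and batch, and a gene was called where its p adjusted by Benjamini-Hochberg over 16018 genes was under 0.05. A filter on low counts passed 7 members, and left out Sftpb, Sftpc and Sftpd. The same 7 passed without the 2 highest libraries. Since low members were left out, the count is no support for a difference or its absence. In FKl/l MHC+ against FKl/l 0 of 7 were called, where 1.71% of all genes were. In FKl/l MCK+ against FKl/l it was 0 of 7 where 0.0499% of all genes were called, and in FKl/l MHC+ against MHC CRE Only 0 of 7 where 1.87% were. MHC CRE Only against FKl/l gave 0 of 7 beside 0.0437% of all genes, FKl/l MHC+ against FKl/l MCK+ 0 of 7 beside 2.15%, and batch 2 against batch 1 0 of 7 beside 38.4%. With no adjustment 2 of 7 members had p under 0.05 in FKl/l MHC+ against MHC CRE Only, where 15.8% of all genes did, and 0 of 7 in each of the other comparisons. limma voom and DESeq2 also called 0 members in each genotype comparison. Unadjusted p was under 0.05 for 1 member in MHC CRE Only against FKl/l by limma voom, and by DESeq2 for 2 in FKl/l MCK+ against FKl/l and 1 in FKl/l MHC+ against MHC CRE Only. The share of all genes under 0.05 by these methods is not given here, so these counts cannot be read as particular to the members. DESeq2 gave no p for Scgb1a1, Scgb3a1 and Sftpa1.

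The fold changes were large but so were their errors. For Scgb1a1 the log2 fold change was -2.26 (SE 2.18, adjusted p = 0.669 by edgeR) in FKl/l MHC+ against FKl/l, with means of 5.00 CPM against 18.6 CPM. In FKl/l MCK+ against FKl/l it was -3.07 (SE 1.87, adjusted p = 0.992 by edgeR), and in MHC CRE Only against FKl/l 1.43 (SE 2.20, adjusted p = 0.838 by edgeR). Sftpa1 had the smallest adjusted p of a member between genotypes, 0.188 by edgeR in FKl/l MHC+ against MHC CRE Only (log2 fold change -4.52, SE 1.69), with means of 0.120 CPM against 2.85 CPM. Over the 7 members and 5 genotype comparisons the SE reached 2.28, where the median over all genes was 0.114. The 7 members always pointed one way within a comparison. Their median log2 fold change was -1.64 in FKl/l MHC+ against FKl/l, -2.94 in FKl/l MCK+ against FKl/l, -2.95 in FKl/l MHC+ against MHC CRE Only, 1.43 in MHC CRE Only against FKl/l and 1.24 in FKl/l MHC+ against FKl/l MCK+. Over all genes the medians lay between -0.016 and 0.0043. The members move together across libraries and are not separate evidence of a direction, and the comparisons share libraries.

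In the comparisons with FKl/l the direction turned on 2 libraries. The members kept their sign in FKl/l MHC+ against MHC CRE Only and against FKl/l MCK+ without either library or both. Without FKl/l 1-1 the median over the 7 members was 3.13 in FKl/l MHC+ against FKl/l and 2.25 in FKl/l MCK+ against FKl/l, and all 7 members changed sign in both. Without MHC CRE Only 2-3 the median was -0.53 in MHC CRE Only against FKl/l, with all 7 below 0, and -0.38 in FKl/l MHC+ against MHC CRE Only. Without both, the medians were 3.09 in FKl/l MHC+ against FKl/l, 1.77 in FKl/l MCK+ against FKl/l, 3.68 in MHC CRE Only against FKl/l and -0.65 in FKl/l MHC+ against MHC CRE Only, and 0 members were called by edgeR. Before adjustment, p was then under 0.05 for 7 of 7 members in MHC CRE Only against FKl/l, 2 of 7 in FKl/l MHC+ against FKl/l, 1 of 7 in FKl/l MHC+ against MHC CRE Only and 0 of 7 in FKl/l MCK+ against FKl/l. Without FKl/l 1-1 alone the median in MHC CRE Only against FKl/l was 5.97, also with 7 of 7 under 0.05 before adjustment and 0 called. These 2 libraries were picked for their member levels, so the values without them describe the other libraries and test nothing. The share of all genes with p under 0.05 is not given for the fits of this paragraph. The counts of members under 0.05 therefore cannot be read as particular to the members. For FKl/l MHC+ against FKl/l MCK+ the median was 1.21 without both. Without MHC CRE Only 1-3, whose Fkbp1a level was low for its label, the median was 2.21 in MHC CRE Only against FKl/l and -3.29 in FKl/l MHC+ against MHC CRE Only, with 0 called by edgeR and 0 and 3 of 7 members under 0.05 before adjustment.

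Within batches the fold changes disagreed in some comparisons. In batch 2 alone the median over the 7 members tested was 3.41 in FKl/l MHC+ against FKl/l and 6.91 in MHC CRE Only against FKl/l. In batch 1 alone it was -4.23 and -2.16 over 8 members tested. FKl/l MHC+ against FKl/l MCK+ had 3.40 in batch 2 and -0.76 in batch 1. In FKl/l MHC+ against MHC CRE Only all members lay below 0 in both batches, with medians of -3.20 and -2.17. FKl/l MCK+ against FKl/l had medians of -0.15 and -3.30, with members on both sides of 0 in batch 2. The interaction of batch with MHC CRE Only against FKl/l had a median of 8.94 (SE of the members 2.80 to 3.32), with p under 0.05 before adjustment for 7 of 7 members and for 23.8% of all genes. None passed after it, with a smallest adjusted p of 0.0742 by edgeR, where 5.57% of all genes were called. For FKl/l MHC+ against FKl/l the interaction had a median of 7.61 and a smallest adjusted p of 0.271 by edgeR, with 6 of 7 members and 13.7% of all genes under 0.05 before adjustment, where 0.00624% of all genes were called. The 2 highest libraries lie in opposite batches, MHC CRE Only 2-3 in batch 2 and FKl/l 1-1 in batch 1. Without both, the number of all genes called in the interaction of MHC CRE Only against FKl/l was 0, against 892 with them, and in that of FKl/l MHC+ against MHC CRE Only it was 62, against 491. The count moved the other way in the interaction of FKl/l MHC+ against FKl/l, with 65 calls without them against 1, and of FKl/l MHC+ against FKl/l MCK+, with 18 against 3. The members in the interaction of FKl/l MHC+ against MHC CRE Only had a median of -1.29, with 0 of 7 called where 3.07% of all genes were, and in that of FKl/l MHC+ against FKl/l MCK+ 4.72, with 0 of 7 called where 0.0187% were. The counts between genotypes changed less, with 317 calls without them against 274 in FKl/l MHC+ against FKl/l, and 294 against 299 in FKl/l MHC+ against MHC CRE Only.

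**Figure D5:**
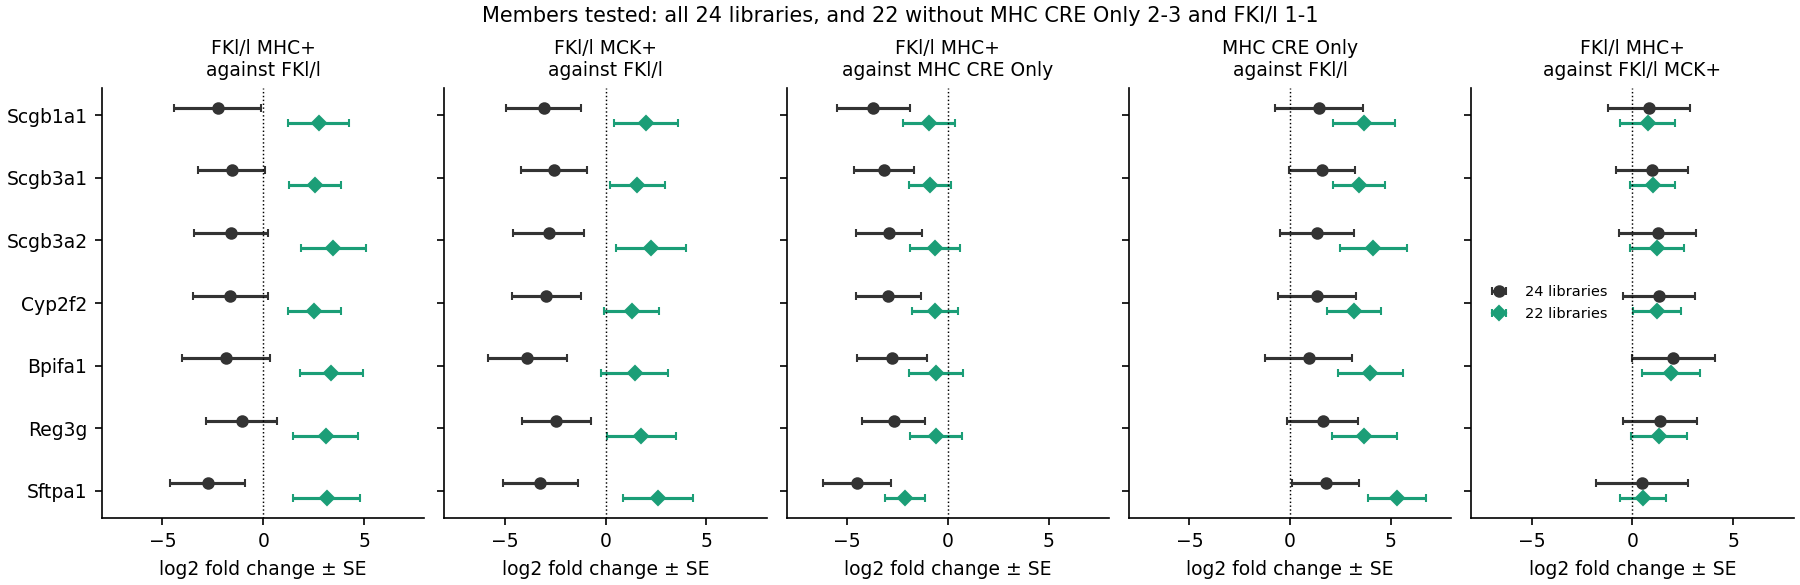
log2 fold changes of the 7 members tested (x axis, bars ± SE, edgeR fit) in 5 genotype comparisons, with all 24 libraries (grey circles) and with 22, without MHC CRE Only 2-3 and FKl/l 1-1 (green diamonds). In both comparisons of a deletion genotype against FKl/l all 7 members lie below 0 with 24 libraries and above 0 with 22.

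The authors' deposited table of each comparison held the same 7 members, each with an adjusted p of 1. In the authors' deposited table for MHC CRE Only against FKl/l, Scgb1a1 had a log2 fold change of 4.01 and Sftpa1 3.78 (p = 0.0268 before adjustment, from the authors' model). In the authors' deposited tables Scgb1a1 had 1.09 in FKl/l MHC+ against FKl/l and 1.11 in FKl/l MCK+ against FKl/l, the opposite sign to the edgeR fit. limma voom fitted here gave 1.05 and 1.06 for these. The authors' p-values were taken as set against a minimum fold of 1.2, whereas the fits here tested against no change.

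Genes of the other epithelial lists were not called between genotypes, with an exception given next. Of 9 other airway secretory genes tested, edgeR called 0 in FKl/l MHC+ against FKl/l (median log2 fold change -0.73), in FKl/l MCK+ against FKl/l (-2.36), in FKl/l MHC+ against MHC CRE Only (-2.25) and in MHC CRE Only against FKl/l (1.09). Before adjustment 0, 1, 3 and 0 of these 9 had p under 0.05 in these 4 comparisons, where 14.7, 5.24, 15.8 and 12.9% of all genes did. Of 5 ciliated cell genes 0 were called and 0 had an unadjusted p under 0.05, with medians of -0.017, -0.37, -0.45 and 0.57. The medians of both lists lay on the same side of 0 as those of the members in each comparison, and all rest on the same libraries. In the same 4 comparisons edgeR called 0 of 7 other type 2 cell genes (2, 0, 3 and 1 with unadjusted p under 0.05), 0 of 8 type 1 cell genes (1, 1, 3 and 2) and 0 of 6 general epithelial genes (1, 1, 3 and 0). It also called 0 of 4 basal genes and 0 of 2 lung transcription factors, of which 1 each had an unadjusted p under 0.05, in FKl/l MHC+ against MHC CRE Only.

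Lcn2, an antimicrobial lipocalin of many inflamed tissues, was called among 2 inducible airway genes tested. Its lowest, median and highest levels were 1.83, 3.37 and 6.11 CPM in FKl/l MHC+ and 1.09, 1.66 and 2.19 CPM in FKl/l MCK+. They were 1.97, 2.14 and 3.58 CPM in MHC CRE Only hearts, against 0.731, 1.27 and 2.23 CPM in FKl/l. All 4 ranges overlapped. Lcn2 rose in FKl/l MHC+ against FKl/l by a log2 fold change of 1.48 (SE 0.25, adjusted p = 0.00152 by edgeR) and against FKl/l MCK+ by 1.14 (SE 0.25, adjusted p = 0.0146 by edgeR). It was not called in FKl/l MHC+ against MHC CRE Only (0.54, SE 0.24, adjusted p = 0.271 by edgeR) or in MHC CRE Only against FKl/l (0.94, SE 0.25, adjusted p = 0.111 by edgeR). Of the 2 libraries rich in lung transcripts, MHC CRE Only 2-3 had 2.11 CPM, near the median of its genotype, and FKl/l 1-1 had 2.23 CPM, the highest of its genotype. Retnla, a resistin-like secreted protein and the other gene tested, was not called, with log2 fold changes of -0.27 in FKl/l MHC+ against FKl/l (SE 0.19, adjusted p = 0.529 by edgeR) and -0.46 in MHC CRE Only against FKl/l (SE 0.19, adjusted p = 0.296 by edgeR).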

How the data were processed

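RNA from 24 libraries of whole mouse hearts was analysed from the whole-number read counts per gene that the authors deposited. Per the submitters' processing notes, bcl2fastq 2.17, FastQC, Trim Galore, STAR and RSEM were used with build mm10; for their settings, annotation and strandedness the sources used here give nothing. Of 56384 rows, 3660 named by transcripts held 0.873 to 4.28% of a library's counts and stayed out of library sizes and tests. Gene positions and exon lengths came from the GRCm38 annotation, and promoters from RefSeq.

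The members and marker lists were chosen with earlier results of these data known. CPM used TMM library sizes. The 16018 genes that passed edgeR's filter on low counts by genotype were fitted with edgeR 4.0.16 (R 4.3.3), by a robust quasi-likelihood F-test with terms for genotype and batch, and p was adjusted by Benjamini-Hochberg. The interaction of batch with genotype was a separate fit. The tests were run on simulated counts first. Alternatives were limma 3.58.1 (voom), DESeq2 1.42.0, other normalizations, no filter, no batch term, a replicate block, each batch alone and each library left out. The authors also deposited, for each of 5 comparisons, log2 fold changes, a test statistic (a score) and p-values, per the file headers. Their p-values were taken as set against a minimum fold of 1.2, which the column headers do not state.

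Named genes are the 10 members, the 8 genes with the highest Pearson r to the mean of each class (genes with at least 10 counts in at least 2 libraries, without predicted or sex-specific names), and up to 4 genes of highest mean CPM per list; genes of a list at 0 reads are named too. One gene that this rule selects is not reported here. Shares have 95% Wilson intervals and ratios exact intervals. Intervals, and the floor of 3 counts, cover counting error only. Libraries with the same replicate number did not deviate together, as given further on, so numbers were not taken as pairs.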

Additional observations from a re-analysis of the deposited data

Results flagged for a closer look

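In 34 of the 44 sets of 6 libraries of a genotype that were checked, for single members and the airway and alveolar sums, the highest library lay far from the other 5, with a gap to the next that exceeds Dixon's 95% critical share of the whole range. Chance gives such a gap in about 1 in 20 sets for independent, normally spread values, and these sets share libraries and are skewed. The members were also chosen with their high level in some of these libraries known. The gaps are therefore a description, and the number of sets is no evidence against chance.

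MHC CRE Only 2-3 stood apart in all 12 sets of its genotype, with gaps of at least 0.872 of the range. Its airway members were Scgb1a1 at 364 CPM, Bpifa1 at 346 CPM, Cyp2f2 at 253 CPM, Reg3g at 52.5 CPM, Scgb3a2 at 51.5 CPM and Scgb3a1 at 30.8 CPM, for an airway sum of 1098 CPM. Its surfactant genes were Sftpc at 75.0 CPM, Sftpa1 at 14.3 CPM, Sftpb at 9.88 CPM and Sftpd at 9.75 CPM, for a sum of 109 CPM.

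FKl/l 1-1 stood apart in all 12 sets of FKl/l, with gaps of at least 0.965 of the range. It had Bpifa1 at 166 CPM, Scgb1a1 at 108 CPM, Cyp2f2 at 101 CPM, Scgb3a2 at 25.9 CPM, Reg3g at 21.2 CPM and Scgb3a1 at 12.3 CPM, for an airway sum of 435 CPM. Sftpc was at 9.31 CPM, Sftpa1 at 4.79 CPM, Sftpd at 2.14 CPM and Sftpb at 1.01 CPM, for a sum of 17.2 CPM.

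FKl/l MCK+ 1-2 stood apart in 9 sets, at levels far under those of the other 2. It had Scgb1a1 at 9.34 CPM, Cyp2f2 at 8.55 CPM, Bpifa1 at 7.72 CPM, Reg3g at 2.83 CPM, Scgb3a2 at 2.78 CPM and Scgb3a1 at 1.46 CPM, for an airway sum of 32.7 CPM, with Sftpa1 at 0.278 CPM and Sftpd at 0.232 CPM. FKl/l MHC+ 2-1 stood apart for Sftpd alone, at 0.339 CPM from 12 reads.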

How the results depend on the processing

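No member was called between genotypes under any alternative tried, but the sign of the fold changes depended on the libraries and the model. Over 1190 fits of a member in a genotype comparison under an alternative, 75 had the opposite sign to the reported value, of which 0 were in FKl/l MHC+ against MHC CRE Only. The values that follow are log2 fold changes of Scgb1a1 and then Sftpa1. In FKl/l MHC+ against FKl/l they were 1.05 and 0.26 with limma voom, 2.75 and 3.15 without both highest libraries, 3.76 and 3.35 in batch 2 alone, and -3.02 to 2.67 and -3.54 to 3.21 with each library left out in turn. In FKl/l MCK+ against FKl/l they were 1.06 and 0.085 with limma voom, 2.00 and 2.62 without both, 0.60 and 0.62 in batch 2 alone, and -5.35 to 2.60 and -4.57 to 3.12 with each library left out. In MHC CRE Only against FKl/l they were -2.52 and -1.25 in batch 1 alone, and -0.83 to 6.17 and -0.18 to 7.62 with each library left out. In FKl/l MHC+ against FKl/l MCK+ they were -1.93 and -2.49 in batch 1 alone, -0.015 for Scgb1a1 with limma voom, and -0.097 to 2.36 and -0.38 to 1.65 with each library left out. Leaving out FKl/l 1-1 or MHC CRE Only 2-3 gave the extremes that turned the comparisons with FKl/l. For the other reversals the cause was not tested.

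Of the fits of 10 members in interactions of batch with the 5 genotype comparisons, 36 were called with no filter on low counts, a setting chosen after seeing the data. As reported, with 7 members, 0 were called. The share of all genes called with no filter is not given here, so the 36 cannot be read as particular to the members. The fit with no filter gave Scgb1a1 a quasi-dispersion of 0.616 over 30118 genes, against 147 over 16018 genes with the filter, and the cause was not tested. With library sizes that leave out mitochondrially encoded genes, the summed level in MHC CRE Only 2-3 was 1894 CPM in place of 1207 CPM. The median airway share over 24 libraries was 97.2% and kept within 95.7 to 98.5% under its alternatives. With the replicate number as a block 0 members were called, and the median log2 fold change was -0.026 in FKl/l MHC+ against FKl/l and -1.63 in FKl/l MCK+ against FKl/l; Scgb1a1 had -0.45 and -1.34. Libraries that share a number correlated in their deviations at -0.24 to 0.16 over 36 pairs, of which 3 exceeded 0.1. Depth limits Sftpb, Sftpc and Sftpd, which had few or 0 reads outside the 2 highest libraries and did not pass the filter on low counts over all 24 libraries. Tested with no filter, 0 of 10 members were called in each genotype comparison.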
